A study of Mus musculus with 24 samples.

Results

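The comparison described here is between colon fibroblasts of mice that had lost Ihh and Apc from the gut epithelium and those of mice that had lost Apc alone. Its arrays were chosen by genotype, 9 IhhKO_ApcKO and 8 ApcKO arrays, which are 17 of the 24 arrays of the series. The remaining 7 arrays, from WT mice, entered the model and give a reference range. All mice carried Villincre-ERT2, a Cre recombinase that is expressed from the Villin promoter of the intestinal epithelium and is active only after induction, and the ZsGreen reporter. WT mice had the genotype IhhWT-ApcWT, ApcKO mice IhhWT-ApcKO and IhhKO_ApcKO mice IhhKO-ApcKO. The cells were sorted from colon as Epcam-, CD45-, CD31- and gp38+, gp38 being podoplanin, and were profiled as total RNA on the Affymetrix Mouse Transcriptome Array 1.0, with 1 array per sample. The labels give neither the age or sex of the mice nor the time since induction. They do not state that each array is a separate mouse, so that p-values measure the spread between these samples.

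Indian hedgehog, the product of Ihh, is a secreted ligand that the epithelium of the colon makes and that the cells of the underlying mesenchyme receive. Without ligand the receptor Ptch1 holds the membrane protein Smo inactive, and with ligand Smo signals to the Gli transcription factors. Gli1, Ptch1 and Hhip, a membrane protein that binds the ligand and limits its reach, are themselves switched on by the pathway and serve as its usual readout. Because the Cre acts in the epithelium, the fibroblast levels of Ihh and Apc do not check the deletions.

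Levels are RMA values on the log2 scale, so that a difference of 1 is a doubling, and a difference is IhhKO_ApcKO minus ApcKO with its standard error (SE) from a limma fit to all 24 arrays. A gene is said to have risen or fallen where its Benjamini-Hochberg adjusted p over the 30827 genes tested was under 0.05. Array medians lay between 4.96 and 5.14, and the median of the 5222 negative control probe sets was 4.65. These controls spread widely, with a 95th percentile of 8.21. Of the genes that fell, Gm16907, Fancc, Thsd4, Ndst3, Dclk2 and Eml1 averaged below that percentile in both groups, as did Mmp10, which rose. Levels in that range are shared with some negative controls. The median difference of all genes was 0.01, and 43.4% of the genes had a negative difference. The fibroblast marker Pdpn, which encodes gp38, averaged 10.83 in ApcKO and 10.92 in IhhKO_ApcKO. The collagen gene Col1a1 averaged 10.83 and 10.65. In sorted populations fewer cells of a type and less RNA per cell cannot be told apart.

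Features of the arrays other than the genotype varied, some of them along with it. Epithelial markers were present despite the gate against Epcam: the mean of 16 markers lay from 6.29 to 8.34 (median 7.51) in ApcKO and from 5.55 to 8.40 (median 7.13) in IhhKO_ApcKO. The mean of 19 leukocyte markers lay from 4.95 to 5.17 (median 5.1) and from 5.03 to 5.35 (median 5.12). Ptprc, the gene of CD45, was at 2.92 and 2.99 on average. Xist, which female cells transcribe from their inactive X, was above 10 on 3 of 8 ApcKO and 6 of 9 IhhKO_ApcKO arrays. Each sample carries a code, whose letter was B on the ApcKO arrays except A9 and C on the IhhKO_ApcKO arrays except B9. The genotypes compared occur together only within letter B, through B9, and A9 shares its letter with WT arrays only. B9 is labelled IhhKO_ApcKO but lay near the ApcKO arrays in Gli1, Ptch1 and Hhip. Its label and the extent of its Ihh deletion cannot be checked in sorted fibroblasts, and every difference over 9 arrays includes it. Arrays are called double-knockout here by their labels, and values without B9 are given for the genes that passed. C9, of the same group, had the highest median of background probe sets, 3.15, where the other arrays did not exceed 2.92. It also held the lowest double-knockout value of several genes named below, among them Gli2, Prkaca, Disp1 and Fbln5. The same holds for Ptch1, Gm16907, Pltp, Fancc, Thsd4 and Eml1, which fell. Gli1, Hhip, Lepr, Ndst3, Rbp4, Dclk2 and Cilp, which also fell, were lowest on other arrays. Without C9, 12 genes were past the test, 10 of them shared with the full set.

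Few genes passed the test in this comparison: 13 fell and 1 rose, which is 0.0422% and 0.00324% of those tested. The falls were led by the readout of the pathway itself, Gli1, Ptch1 and Hhip, together with Lepr, the leptin receptor, each by more than 1 log2 unit. The single rise was that of Mmp10, which encodes the matrix metalloproteinase stromelysin 2. Without B9 the same 14 genes passed and 27 more with them, 34 lower and 7 higher (0.11% and 0.0227% of the genes). At an unadjusted p under 0.05 there were 1524 genes, where 1541 would be expected by chance. The WT mean lay inside the ApcKO range for all 14 genes.

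The number of genes past the test depended on single arrays and on how the code letter was treated. Leaving out 1 array at a time gave between 8 genes (without C6) and 41 (without B9). With the code letter as a random block 1 gene passed, Gli1. As a fixed block the comparison rests on B9 against the ApcKO arrays of letter B; 53 genes passed and 0 of the 14 were among them. Within that letter Gli1 was at -0.25 and Ptch1 at -0.10.

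Gli1, the transcription factor that the pathway induces, ranged from 8.03 to 8.47 (median 8.24) in ApcKO and from 6.64 to 7.99 (median 6.79) in IhhKO_ApcKO. Each of the 9 double-knockout arrays was lower than any ApcKO array, but B9, at 7.99, lay just below the lowest of them while the other 8 did not exceed 7.05. Gli1 fell by 1.31 (SE 0.13, adjusted p = 4.03e-06), or 2.47-fold with a 95% interval of the difference from -1.57 to -1.05. Without B9 the difference was -1.44 (SE 0.064), since the remaining arrays were as close to each other, with an SD of 0.14, as the ApcKO arrays were, also with an SD of 0.14. Together with Gli1, the genes that had all 9 double-knockout arrays below every ApcKO array were Ndst3, Dclk2 and Selenbp2, which is 0.013% of all genes. Those with all 9 above were Mmp10, Chl1 and Cstb, or 0.00973%. Selenbp2, a selenium-binding protein chosen for mention after its values were seen, did not pass at -0.28 (SE 0.071, adjusted p = 0.257).

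Ptch1, the receptor, ranged from 9.05 to 10.05 (median 9.77) in ApcKO and from 7.67 to 9.53 (median 8.34) in IhhKO_ApcKO. Only B9, at 9.53, overlapped the ApcKO arrays, and the next highest was 8.52. Ptch1 fell by 1.32 (SE 0.18, adjusted p = 0.00139), and the difference was -1.47 without B9. Hhip ranged from 8.68 to 9.93 (median 9.42) and from 7.33 to 8.96 (median 8.04), again with B9 as the highest of its group and inside the ApcKO range. It fell by 1.39 (SE 0.21, adjusted p = 0.00459), and the difference was -1.52 without B9. ApcKO and WT arrays alike spread over about a log2 unit in Hhip, with WT from 8.68 to 9.76, whereas Gli1 was narrow in both.

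**Figure D1:**
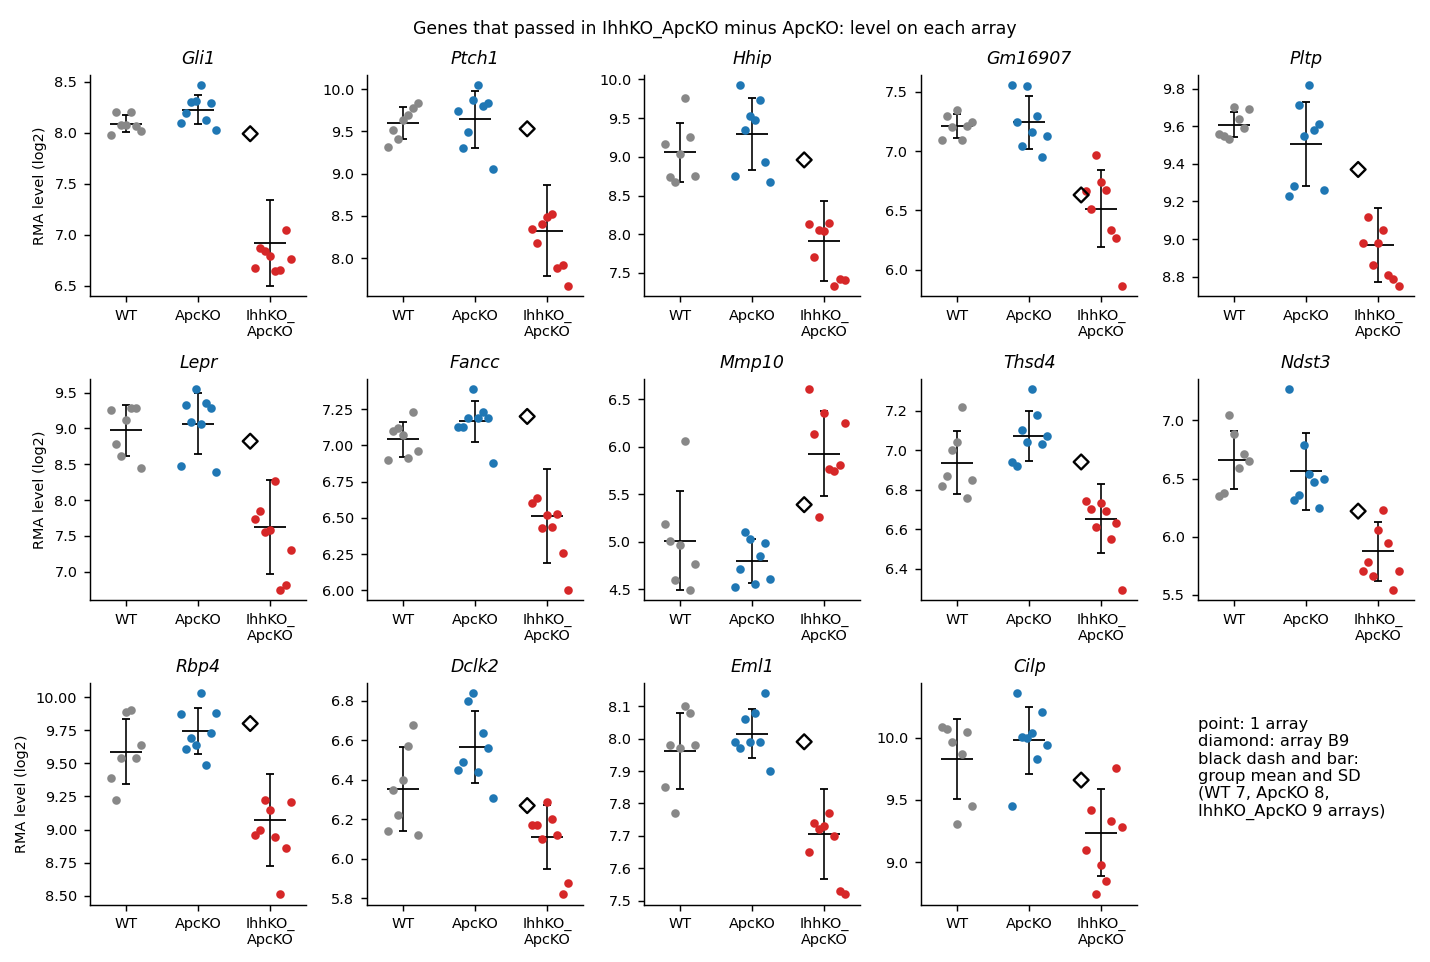
RMA log2 level of the 14 genes that passed, by group, with each array as a point, B9 as an open diamond and the group mean and SD as a dash and bar (WT 7, ApcKO 8, IhhKO_ApcKO 9 arrays). B9 lies among or near the ApcKO points in Gli1, Ptch1, Hhip, Lepr, Fancc, Rbp4 and Eml1, and within the double-knockout points in Gm16907 and Dclk2.

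The ligands showed no difference past the test. In ApcKO and IhhKO_ApcKO, Ihh averaged 6.33 and 6.36, Shh 5.03 and 5.10 and Dhh 5.57 and 5.61. The median gene level was 5.60. All 3 ligands lay below the 95th percentile of the negative controls, 8.21, which limits what their levels can tell. Ihh was at 0.02 (95% interval -0.11 to 0.16), Shh at 0.07 (95% interval -0.06 to 0.19) and Dhh at 0.04 (95% interval -0.19 to 0.28). Among 10 receptors and membrane partners 7 had a negative difference and 4 were lower at an unadjusted p under 0.05, a share to set beside 2.34% of all genes lower and 2.60% higher at that threshold. Ptch1 and Hhip were 2 of these 4. The others were Disp1, a transporter that releases the ligand, at -0.16 (SE 0.059), and the co-receptor Boc at -0.19 (SE 0.088), neither of which passed (adjusted p = 0.699 and 0.984). Smo, the signal transducer, ranged from 7.69 to 8.05 in ApcKO and from 7.61 to 7.96 in IhhKO_ApcKO, with a difference of -0.11 (95% interval -0.23 to 0.01).

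Inside the cell, 11 of 15 mediators had a negative difference and 4 were lower at an unadjusted p under 0.05, with a median of -0.08. Besides Gli1 these were Gpr161, a ciliary receptor that restrains the pathway, at -0.20 (SE 0.056), the transcription factor Gli2 at -0.22 (SE 0.062) and Prkaca, a catalytic subunit of protein kinase A, at -0.21 (SE 0.088). Gli2 ranged from 8.02 to 8.24 in ApcKO and from 7.52 to 8.09 in IhhKO_ApcKO, with 7 of 9 arrays below every ApcKO array. Its lowest value was on C9, and the next was 7.86. None of these 3 passed (adjusted p = 0.309, 0.368 and 0.919). Gli3, the Gli factor that acts mainly as a repressor, was at -0.14 (SE 0.072), and Sufu, which binds Gli proteins in the cytoplasm, at -0.03 (SE 0.069). Of 28 genes of the primary cilium, on which the signal depends, 0 were past an unadjusted p of 0.05 in either direction, although 24 had a negative difference (median -0.04).

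All 14 measured genes of the Hedgehog target list had a negative difference, 5 of them at an unadjusted p under 0.05, with a median of -0.12. They differed widely in size. Foxl1, a transcription factor of subepithelial fibroblasts, ranged from 6.54 to 6.86 (median 6.77) in ApcKO and from 6.15 to 6.58 (median 6.34) in IhhKO_ApcKO. Its 8 double-knockout arrays below every ApcKO array included B9, at 6.53. At -0.37 (SE 0.072) it narrowly missed (adjusted p = 0.051) and passed without B9 (adjusted p = 0.0252). The forkhead factors Foxf1, at -0.12 (95% interval -0.24 to 0.01), and Foxf2, at -0.08 (95% interval -0.28 to 0.12), showed far smaller differences. Bmp4, a secreted factor of the stroma, ranged from 9.98 to 10.64 and from 10.14 to 10.80, with a difference of -0.01 (95% interval -0.25 to 0.23). The interval of Bmp4 thus excludes a fall of the size seen in Gli1, and those of Foxf1 and Foxf2 do likewise.

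Ptch1 and 2 other genes that fell lie close together. In the gene order of RefSeq (GRCm38.p6), which was looked up after the values were seen, Gm16907, Mir3074-1, Fancc and Ptch1 follow each other on chromosome 13, and all 4 had lower levels. Gm16907, a gene without a protein-coding RefSeq entry, ranged from 6.95 to 7.56 (median 7.20) in ApcKO and from 5.86 to 6.97 (median 6.63) in IhhKO_ApcKO. It fell by 0.73 (SE 0.11, adjusted p = 0.00503), and here B9, at 6.63, stood in the middle of its group; without it the difference was -0.74. Fancc, a member of the Fanconi anemia DNA repair complex, ranged from 6.88 to 7.39 (median 7.19) and from 6.0 to 7.20 (median 6.52), and it fell by 0.65 (SE 0.10, adjusted p = 0.00583). Its value on B9, 7.20, lay above the ApcKO mean of 7.17, and without B9 the difference was -0.74. B9 was thus low in Gm16907 and not in its neighbour Fancc.

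The probe set named Mir3074-1, a microRNA precursor locus, averaged 7.75 ± 0.41 (SD, n = 8) and 7.13 ± 0.39 (SD, n = 9), a difference of -0.62 (SE 0.18) that did not pass (adjusted p = 0.419). Beyond this run the differences were small, with Aopep, an aminopeptidase, at -0.12 (SE 0.067) on one side and 1700024I08Rik at 0.10 (SE 0.074) on the other. Ercc6l2 lay next to it at -0.18 (SE 0.068). Of the other Fanconi genes, Fancm was at -0.15 (SE 0.060) and Brca2 at -0.16 (SE 0.078), and 3 of 14 members of that list, with Fancc among them, were lower at an unadjusted p under 0.05. No such run was seen at Gli1 or Hhip, where 1 and 0 of the 10 nearest measured genes had an unadjusted p under 0.05. At Eml1 it was 3 of 10, all 3 lower, and 8 of the 10 had a negative difference, but 0 passed. At the other genes that passed outside the run it was 0 to 2 of 10.

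The 250 bases before the annotated start of Ptch1 are shown because Ptch1 is the receptor gene that responds to its own pathway. Neither the Gli motif TGGGTGGTC nor its reverse complement GACCACCCA occurs in them. In RefSeq promoters (GRCm38.p6) of this length the motif was found in 74 of 32851 (0.225%), and in 0 of the 13 genes that passed and have an entry. No match says only that these letters are not in this window.
Ptch1 promoter, chr13:63565736-63565985, minus strand: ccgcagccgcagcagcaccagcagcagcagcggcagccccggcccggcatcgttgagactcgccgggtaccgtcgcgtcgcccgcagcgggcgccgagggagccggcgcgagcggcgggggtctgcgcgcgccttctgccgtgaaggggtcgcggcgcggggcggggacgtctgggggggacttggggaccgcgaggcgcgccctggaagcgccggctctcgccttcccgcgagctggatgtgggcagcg

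**Figure D2:**
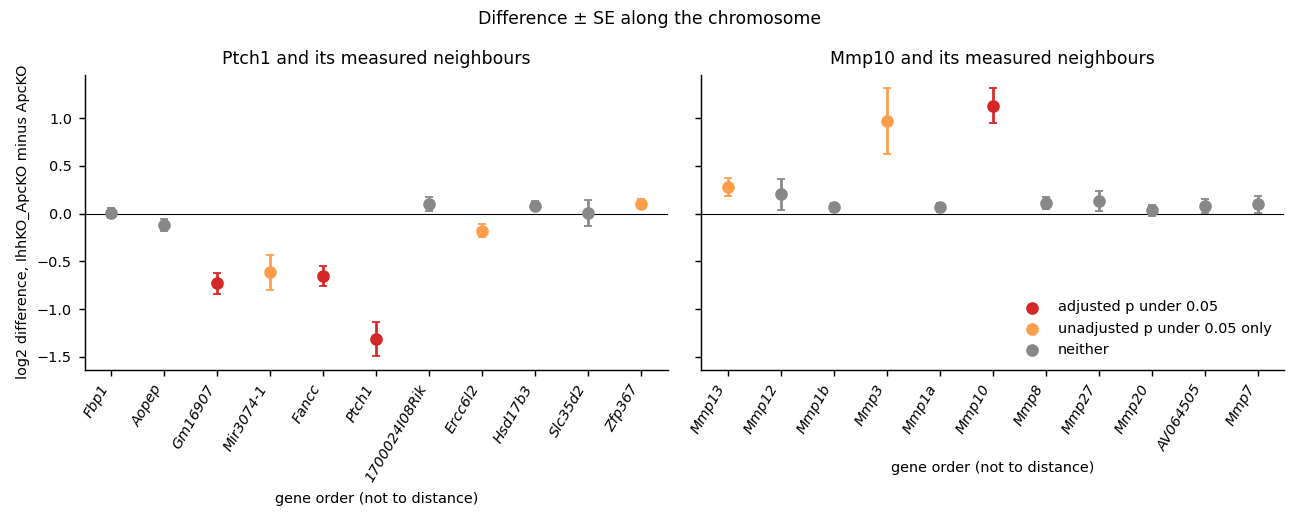
Log2 difference (IhhKO_ApcKO minus ApcKO) with its SE for Ptch1 and Mmp10 and the 5 nearest measured genes on either side, in gene order and not to distance. Gm16907, Mir3074-1, Fancc and Ptch1 lie between -0.62 and -1.32. All 10 neighbours of Mmp10 have a positive difference, most of them at levels below the negative control median.

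Mmp10 rose by 1.13 (SE 0.19, adjusted p = 0.00863), or 2.19-fold, and passed without B9 as well (adjusted p = 0.00291). It ranged from 4.52 to 5.10 (median 4.78) in ApcKO and from 5.26 to 6.61 (median 5.81) in IhhKO_ApcKO. All 9 double-knockout arrays lay above every ApcKO array, B9 at 5.39 among the lowest of them. Its ApcKO level lay near that of the negative controls (median 4.65), and the fold is uncertain for that reason. WT arrays ranged from 4.49 to 6.06, which reaches into the double-knockout values.

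Mmp10 lies in a cluster of matrix metalloproteinase genes on chromosome 9. The 10 nearest measured genes all had a positive difference, 2 of them at an unadjusted p under 0.05. Of all genes, 43.4% had a negative difference. Except for Mmp3 and Mmp27, these neighbours averaged below the negative control median of 4.65 in both groups, so that their signs say little. Mmp3, stromelysin 1, ranged from 6.25 to 8.52 (median 7.36) in ApcKO and from 7.03 to 9.22 (median 8.37) in IhhKO_ApcKO. The groups overlapped over most of this range, with 3 of 9 double-knockout arrays above every ApcKO array. Its difference was 0.97 (SE 0.34, adjusted p = 0.695). Mmp13, a collagenase, was at 0.28 (SE 0.097, adjusted p = 0.659) at levels of 3.75 and 4.02, below the negative control median. The other members of the cluster lay between 0.04 (Mmp20) and 0.20 (Mmp12).

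The 250 bases before the annotated starts of Mmp10, Mmp3 and Mmp13 are printed because these 3 genes had the largest differences of the cluster. Each of them holds 1 copy of the AP-1 motif, TGAGTCA or its reverse complement TGACTCA, printed in capitals, which lies 63, 46 and 35 bases before the start. This motif was looked for after the values were seen. It was found in 1466 of 32851 promoters of this length (4.46%), and in 3 of the 13 genes that passed and have an entry, Mmp10, Rbp4 and Eml1. Of the 15 genes that passed only without B9 and have an entry, 1 held it, Procr. Fos and Jun, which encode subunits of AP-1, were at -0.02 and -0.03. The list of immediate early genes, most of them of other function, had 2 of 19 higher at an unadjusted p under 0.05, Ier3 at 0.37 (SE 0.13) and the phosphatase Dusp1 at 0.13 (SE 0.050), and its median was -0.02. A match is a description of the sequence and not a binding site.
Mmp10 promoter, chr9:7502092-7502341, plus strand: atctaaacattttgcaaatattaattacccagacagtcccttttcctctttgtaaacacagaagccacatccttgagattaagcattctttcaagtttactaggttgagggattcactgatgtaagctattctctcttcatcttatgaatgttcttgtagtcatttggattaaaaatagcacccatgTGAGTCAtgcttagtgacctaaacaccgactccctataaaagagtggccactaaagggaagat
Mmp3 promoter, chr9:7445572-7445821, plus strand: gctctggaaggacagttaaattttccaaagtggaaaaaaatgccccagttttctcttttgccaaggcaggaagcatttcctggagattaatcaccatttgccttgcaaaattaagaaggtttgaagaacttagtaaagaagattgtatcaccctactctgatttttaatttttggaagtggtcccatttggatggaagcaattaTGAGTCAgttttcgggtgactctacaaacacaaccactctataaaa
Mmp13 promoter, chr9:7272264-7272513, plus strand: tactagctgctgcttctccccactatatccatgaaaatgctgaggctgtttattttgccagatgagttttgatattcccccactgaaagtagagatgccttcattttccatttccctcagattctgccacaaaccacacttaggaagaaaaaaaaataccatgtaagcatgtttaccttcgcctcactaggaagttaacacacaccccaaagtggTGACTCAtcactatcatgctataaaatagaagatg

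Lepr had the largest fall of all genes tested. It ranged from 8.39 to 9.55 (median 9.18) in ApcKO and from 6.74 to 8.82 (median 7.58) in IhhKO_ApcKO. B9, at 8.82, was again the array that overlapped. The fall was 1.44 (SE 0.23, adjusted p = 0.00569), or 2.71-fold, and the difference was -1.59 without B9. Of the other genes of leptin and JAK-STAT3 signalling measured, Ptpn1, a phosphatase that acts on JAK2, was at 0.21 (SE 0.090), and Lepr was the 1 gene of 14 in that list that was lower at an unadjusted p under 0.05.

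Pltp, the phospholipid transfer protein, ranged from 9.23 to 9.82 (median 9.56) in ApcKO and from 8.75 to 9.37 (median 8.98) in IhhKO_ApcKO and fell by 0.54 (SE 0.084, adjusted p = 0.00569), and the difference was -0.59 without B9. Among 21 genes of lipid transport and storage it was the 1 that passed, and Lpl, a lipoprotein lipase, at -0.28 (SE 0.092), and the fatty acid transporter Cd36, at -0.48 (SE 0.21), were also lower at an unadjusted p under 0.05. The fatty acid-binding protein Fabp5 was higher, at 0.26 (SE 0.12), and the list as a whole had 11 of 21 genes positive and a median of 0.01. Rbp4, the retinol carrier, ranged from 9.49 to 10.03 (median 9.71) and from 8.51 to 9.80 (median 9.0) and fell by 0.67 (SE 0.12, adjusted p = 0.0333), and the difference was -0.76 without B9. It passed in 14 of 27 alternative fits, the letter blocks not counted. B9 was at 9.80, above the ApcKO mean of 9.74, and the other 8 arrays did not exceed 9.22. Aldh1a1, which makes retinoic acid, was at -0.34 (SE 0.13, adjusted p = 0.826).

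Ndst3 encodes a sulfotransferase that modifies heparan sulfate chains. It ranged from 6.25 to 7.27 (median 6.48) in ApcKO and from 5.54 to 6.23 (median 5.78) in IhhKO_ApcKO. The groups came close to each other but did not overlap, and Ndst3 fell by 0.69 (SE 0.13, adjusted p = 0.0333), and the difference was -0.73 without B9. It passed in 15 of 27 alternative fits. In the list of 25 heparan sulfate enzymes and core proteins it was the 1 gene lower at an unadjusted p under 0.05, while 3 were higher, the syndecans Sdc1 at 0.16 (SE 0.055) and Sdc4 at 0.20 (SE 0.080) and the sulfotransferase Hs3st3b1 at 0.19 (SE 0.085). Dclk2, a doublecortin-like kinase, and Eml1, which binds microtubules, fell by 0.46 (SE 0.086) and 0.31 (SE 0.059), each with an adjusted p of 0.0436, and the differences were -0.48 and -0.34 without B9. They passed in 11 and 9 of 27 alternative fits. Dclk2 lay between 6.31 and 6.84 in ApcKO and between 5.82 and 6.29 in IhhKO_ApcKO, without overlap, whereas Eml1 had B9, at 7.99, inside the ApcKO range of 7.90 to 8.14.

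Matrix genes supplied 2 of the falls. Cilp, cartilage intermediate layer protein, ranged from 9.45 to 10.36 in ApcKO and from 8.74 to 9.76 (median 9.28) in IhhKO_ApcKO. The groups overlapped in 2 arrays, and Cilp fell by 0.74 (SE 0.14, adjusted p = 0.0442), and the difference was -0.80 without B9. It passed in 8 of 27 alternative fits, the lowest number of the 14 genes. Thsd4, which promotes microfibril assembly, ranged from 6.92 to 7.31 (median 7.05) and from 6.29 to 6.94 (median 6.69) and fell by 0.42 (SE 0.074, adjusted p = 0.0221), and the difference was -0.45 without B9. It passed in 21 of the 27. Among 31 matricellular genes 7 were lower at an unadjusted p under 0.05 and 1 higher, with a median of -0.01. Aspn, a small leucine-rich proteoglycan, was at -0.60 (SE 0.16), with 6 of 9 arrays below every ApcKO array, and Ecm2 at -0.33 (SE 0.093). Neither passed (adjusted p = 0.269 and 0.344).

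In the elastic fibre list 4 of 19 genes were lower at an unadjusted p under 0.05, among them Mfap4 at -0.45 (SE 0.12) and Fbln5 at -0.48 (SE 0.16), which help assemble elastic fibres. Lox, which crosslinks collagen and elastin, was the 1 higher gene, at 0.33 (SE 0.083), with 8 of 9 double-knockout arrays above every ApcKO array (adjusted p = 0.219). All 22 collagens had a negative difference, with a median of -0.10, but 3 had an unadjusted p under 0.05, the fibril-associated Col14a1 at -0.29 (SE 0.091) and Col12a1 at -0.33 (SE 0.14) and the basement membrane collagen Col4a5 at -0.16 (SE 0.069). None of the collagens passed.

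Of the functional lists, that of contractile genes had the largest share of lower members, 10 of 16 at an unadjusted p under 0.05, 14 of 16 negative and a median of -0.26. Myocd, the coactivator that drives smooth muscle genes, ranged from 6.34 to 6.79 (median 6.67) in ApcKO and from 5.38 to 6.46 (median 6.16) in IhhKO_ApcKO. It was at -0.58 (SE 0.12, adjusted p = 0.0617) and passed without B9 at -0.63 (adjusted p = 0.0143). Myl9, a myosin light chain, was at -0.52 (SE 0.12, adjusted p = 0.154) and passed without B9 at -0.57 (adjusted p = 0.0494). Smooth muscle actin, Acta2, ranged from 9.40 to 10.15 (median 9.74) and from 8.74 to 9.75 (median 9.17). It was at -0.56 (SE 0.14, adjusted p = 0.233), and its value on B9, 9.75, was the highest of the group.

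These genes are also markers of smooth muscle cells, which the gate could hold. The mean of 8 smooth muscle markers, Hhip among them, lay from 6.99 to 7.47 (median 7.32) in ApcKO and from 6.61 to 7.26 (median 6.90) in IhhKO_ApcKO, and 6 of the 8 were lower at an unadjusted p under 0.05. Desmin, Des, was at -0.19 (SE 0.089), while Pcp4 was at 0.03 (SE 0.11). The 9 pericyte markers had a median of -0.03, with 0 at an unadjusted p under 0.05. The part of smooth muscle cells in the contractile differences was not tested.

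**Figure D3:**
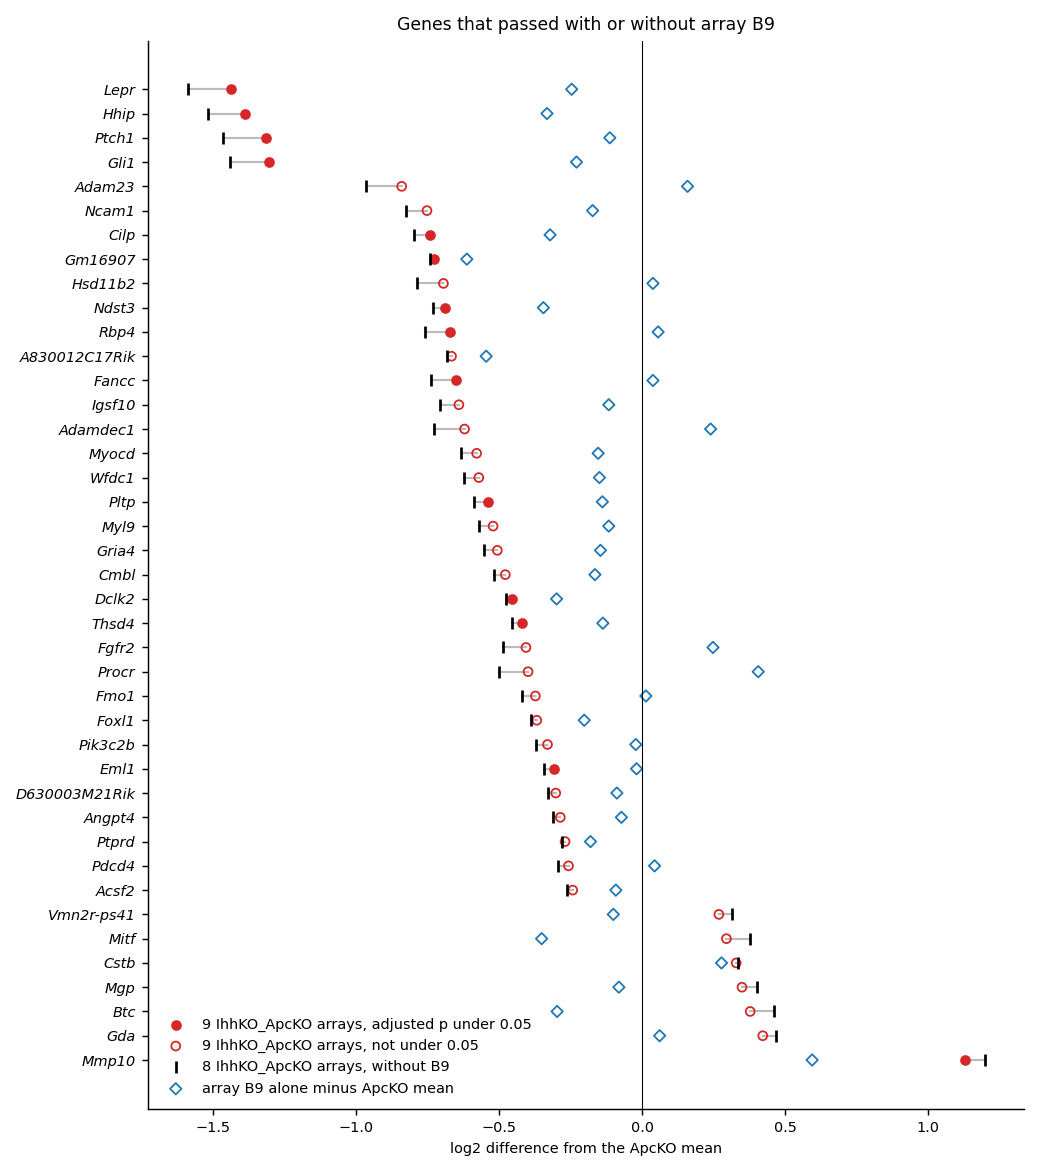
Log2 difference from the ApcKO mean of the 41 genes that passed with or without array B9. Filled circles give the 14 genes that passed with all 9 double-knockout arrays, open circles the others, ticks the difference without B9 and blue diamonds B9 alone. B9 lies on the other side of 0 from the group in 13 genes, among them Procr, Fgfr2, Adamdec1 and Mitf.

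The 27 genes that passed only without B9 comprised 21 lower and 6 higher genes, all with the same sign in the full set, where their adjusted p lay between 0.051 and 0.476. B9 lay inside the ApcKO range in 20 of the 27, a position that the choice of genes passing only without it favours. In 9 of the 27 all other 8 arrays lay beyond every ApcKO array. The choice of genes favours this as well, and the share over all genes without B9 was not counted. The largest was Adam23, a membrane protein of the ADAM family without protease activity, at -0.97 (SE 0.19, adjusted p = 0.0318). Its 8 arrays without B9 lay below every ApcKO array, and B9 was at 9.22 against an ApcKO median of 9.05. Ncam1, the neural cell adhesion molecule, ranged from 9.14 to 9.80 (median 9.53) in ApcKO and from 8.07 to 9.32 (median 8.82) in IhhKO_ApcKO, at -0.75 with B9 and -0.83 without (adjusted p = 0.0617 and 0.0143).

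Hsd11b2, which inactivates glucocorticoids, was at -0.79 (SE 0.16, adjusted p = 0.0455) without B9, and Adamdec1, a secreted protease of gut mesenchyme, at -0.73 (SE 0.15, adjusted p = 0.0478). Adamdec1 was among the brightest genes, from 11.15 to 12.23 in ApcKO, and its value on B9, 12.03, lay well above the 8 others. Fgfr2, a receptor for fibroblast growth factors, was at -0.49 (SE 0.10, adjusted p = 0.0482). Procr, the endothelial protein C receptor, showed the widest gap between B9 and the rest: B9 was at 7.55, above every ApcKO array, and the other 8 lay below every ApcKO array. Further lower genes were Wfdc1 at -0.62, Igsf10 at -0.71, A830012C17Rik at -0.68, Gria4, a glutamate receptor subunit, at -0.55, Cmbl at -0.52, the monooxygenase Fmo1 at -0.42, the lipid kinase Pik3c2b at -0.37 and D630003M21Rik at -0.33.

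The smallest of these lower genes were the angiopoietin Angpt4 at -0.31, the translation inhibitor Pdcd4 at -0.30, the receptor phosphatase Ptprd at -0.28 and Acsf2, an acyl-CoA synthetase, at -0.26 without B9. Of the 6 higher genes, Gda, a guanine deaminase, was at 0.47 and the EGF receptor ligand Btc at 0.46. Mgp, matrix Gla protein, an inhibitor of calcification, ranged from 11.51 to 11.85 in ApcKO, and its 8 arrays without B9 all lay above that range, at 0.40 (SE 0.061, adjusted p = 0.0027). The transcription factor Mitf was at 0.37, and its B9 value of 7.08 was below every ApcKO array. The protease inhibitor Cstb was at 0.33 with and without B9 and stood above every ApcKO array in 9 of 9, and the pseudogene Vmn2r-ps41 was at 0.31.

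Per array the 13 fallen genes gave the following, as a description, since the same arrays chose these genes. Each of the 8 arrays other than B9 had 12 or 13 of them below every ApcKO array, and B9 had 4. The median deviation of the 13 genes from the ApcKO mean was -0.23 on B9 and between -0.59 and -0.91 on the others. Xist was at 4.54 on B9, and it was also low on C5 (4.37) and C9 (4.60). C5 and C9 had all 13 genes below every ApcKO array.

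Of all lists, interferon response genes had the largest share of higher members, 18 of 36 at an unadjusted p under 0.05, 32 of 36 positive, and a median of 0.20. None passed. Igtp, an immunity-related GTPase, ranged from 6.81 to 7.29 (median 7.12) in ApcKO and from 7.05 to 8.27 (median 7.88) in IhhKO_ApcKO, with 8 of 9 arrays above every ApcKO array. It was at 0.70 (SE 0.16, adjusted p = 0.14). The guanylate-binding protein Gbp7 was at 0.59 (SE 0.13, adjusted p = 0.147). WT arrays ranged from 6.95 to 8.20 in Igtp and from 7.99 to 9.10 in Gbp7, which covers most of the double-knockout values.

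Related lists shared the sign. In antigen processing 4 of 17 genes were higher at an unadjusted p under 0.05, with the immunoproteasome subunits Psmb8 at 0.29 (SE 0.077) and Psmb9 at 0.21 (SE 0.096), the proteasome activator Psme1 at 0.14 (SE 0.051) and the peptide transporter Tap1 at 0.21 (SE 0.083). In the complement list 5 of 16 were higher, led by Cd55, which protects cells from complement, at 0.20 (SE 0.069), and C2 at 0.34 (SE 0.12). Clusterin, Clu, was at 0.42 with B9 and 0.32 without.

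All 22 acute-phase and interleukin-1 response genes had a positive difference, with a median of 0.15, but 2 had an unadjusted p under 0.05. Saa3, an acute-phase protein, ranged from 5.95 to 7.49 (median 6.45) in ApcKO and from 6.83 to 9.68 (median 7.46) in IhhKO_ApcKO. Its highest value was on B9, and its difference went from 1.04 (SE 0.35) to 0.78 without that array, when 20 of the 22 genes had a positive difference. Il1b, interleukin-1 beta, was also highest on B9, at 6.39, against a median of 5.05 in the group. Among 22 chemokines 4 were higher at an unadjusted p under 0.05, with Cxcl13, which attracts B cells, at 0.70 (SE 0.26), Ccl7 at 0.42 (SE 0.17) and Cxcl5 at 0.32 (SE 0.11). B9 had the highest leukocyte marker mean of both groups, 5.35, with Lyz2 at 6.82 and Tyrobp at 6.16, but single markers were higher elsewhere, with Tyrobp at 6.65 on C9. The part of leukocytes in these differences was not tested.

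Epidermal growth factor family genes were higher in 4 of 14 cases at an unadjusted p under 0.05, and 0 were lower. Nrg1, neuregulin 1, ranged from 7.01 to 8.06 (median 7.64) in ApcKO and from 7.91 to 8.70 (median 8.22) in IhhKO_ApcKO, with 6 of 9 arrays above every ApcKO array, and was at 0.69 (SE 0.16, adjusted p = 0.167). The ligand Ereg, epiregulin, was at 0.53 (SE 0.15) and the adaptor Eps8 at 0.28 (SE 0.074). Btc, at 0.38 (SE 0.11) with B9, passed without it. Of 28 genes of the IGF, FGF and PDGF families 7 were lower, among them Fgf9 at -0.33 (SE 0.082) and Igf1 at -0.36 (SE 0.12), whose B9 value of 8.42 was above every ApcKO array.

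Wnt and BMP genes differed in both directions, and none passed. Rspo1, which enhances Wnt signalling, was at 0.25 (SE 0.074) and the ligand Wnt2b at -0.35 (SE 0.14). The secreted Wnt inhibitors Sfrp1 and Sfrp2 were at 0.30 (SE 0.10) and -0.19 (SE 0.068). Of 10 measured canonical Wnt targets 0 had an unadjusted p under 0.05, with Axin2, a feedback inhibitor of the pathway, at 0.08 (95% interval -0.05 to 0.21). Bambi, a pseudoreceptor that dampens BMP signalling, was at 0.23 (SE 0.098), and Twsg1, a BMP-binding protein, at -0.21 (SE 0.091).

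Markers of fibroblast subsets gave no single direction. In the subepithelial list 5 of 20 genes were lower at an unadjusted p under 0.05, among them Foxl1, Fgf9 and Edn3, endothelin 3, at -0.22 (SE 0.076), and Nrg1 was higher. In the list of CD34-positive and adventitial fibroblasts 4 of 20 were lower, among them Adamdec1, Efemp1 at -0.15 (SE 0.051) and Igfbp6 at -0.20 (SE 0.080), and Ly6c1 was higher at 0.22 (SE 0.065). Among general fibroblast genes Fap, a membrane protease, was at -0.28 (SE 0.12).

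**Figure D4:**
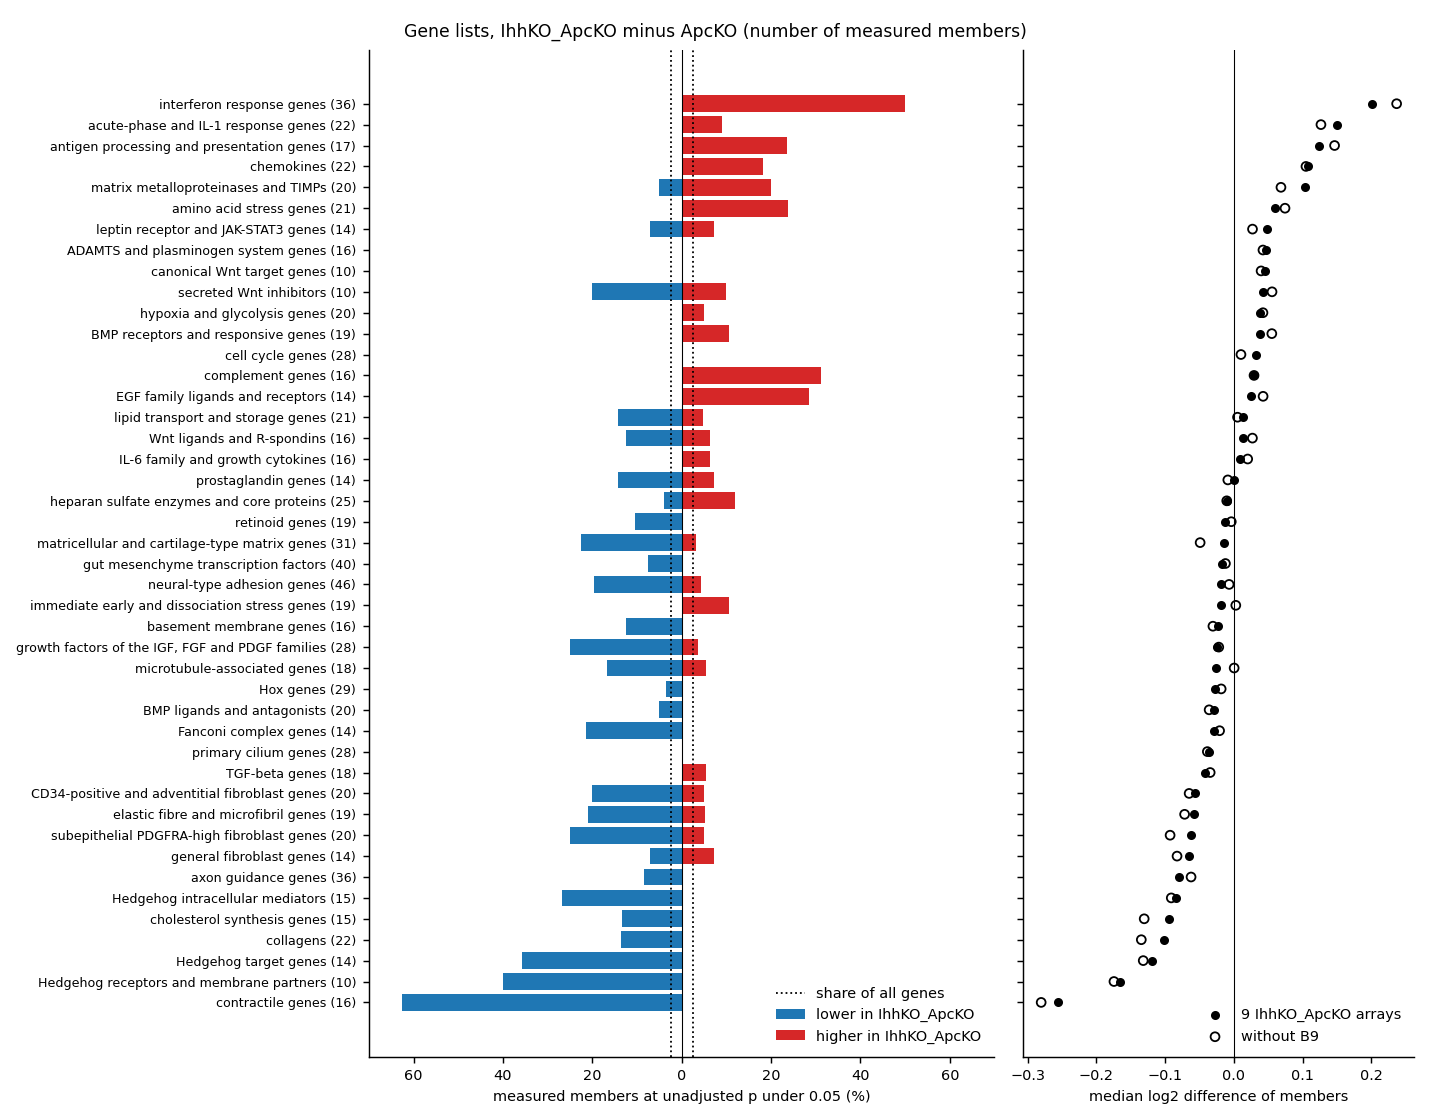
For each list with 10 or more measured members, the percentage of members lower (blue) or higher (red) at an unadjusted p under 0.05 and the median log2 difference with all 9 double-knockout arrays (filled) and without B9 (open). Dotted lines mark 2.34% lower and 2.60% higher among all genes, and contractile and interferon response genes lie farthest out, at medians of -0.26 and 0.20.

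Adhesion genes best known from neurons held several of the larger single differences. Of 46 measured, 9 were lower and 2 higher at an unadjusted p under 0.05. Slitrk6 ranged from 6.57 to 7.87 (median 7.24) in ApcKO and from 5.06 to 7.14 (median 6.04) in IhhKO_ApcKO, with B9 highest, and was at -1.02 (SE 0.26, adjusted p = 0.242). Chl1, close homolog of L1, ran the other way, from 5.36 to 6.61 (median 6.45) and from 6.85 to 7.88 (median 7.33). Its groups did not overlap and its difference was 1.07 (SE 0.24), yet it did not pass (adjusted p = 0.148), and the WT arrays spread from 5.98 to 8.26. Ptgfr and Ptger1, receptors for prostaglandins F2 alpha and E2, were at -0.57 (SE 0.14) and -0.34 (SE 0.090).

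Of 21 amino acid stress genes 16 had a positive difference and 5 were higher at an unadjusted p under 0.05, with Asns, asparagine synthetase, at 0.38 (SE 0.10) and a median of 0.06. Of 15 cholesterol synthesis genes 12 had a negative difference, with Sc5d at -0.22 (SE 0.073) and Srebf2 at -0.21 (SE 0.082). Of 28 cell cycle genes 0 had an unadjusted p under 0.05 in either direction.

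The largest differences that did not pass were of other kinds. Xist, unevenly present as described, was at 1.84 (SE 1.47). Car1, a carbonic anhydrase of colon epithelium, was at -1.31 (SE 0.84), Gm5843 at -1.18 (SE 0.77) and 1810065E05Rik at -1.08 (SE 0.58), all with ApcKO and double-knockout arrays spread over several log2 units. Gm24784, at 1.12 (SE 0.34), had its highest value, 7.58, on B9. In the list of blood endothelial markers, the receptor gene Tek was at -0.39 (SE 0.11), while Pecam1, the gene of CD31, was at 0.04 (SE 0.18). In ApcKO, Tek ranged from 8.20 to 8.97 and Pecam1 from 4.99 to 6.51. Whether Tek came from cells outside the gate was not tested.

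**Figure D5:**
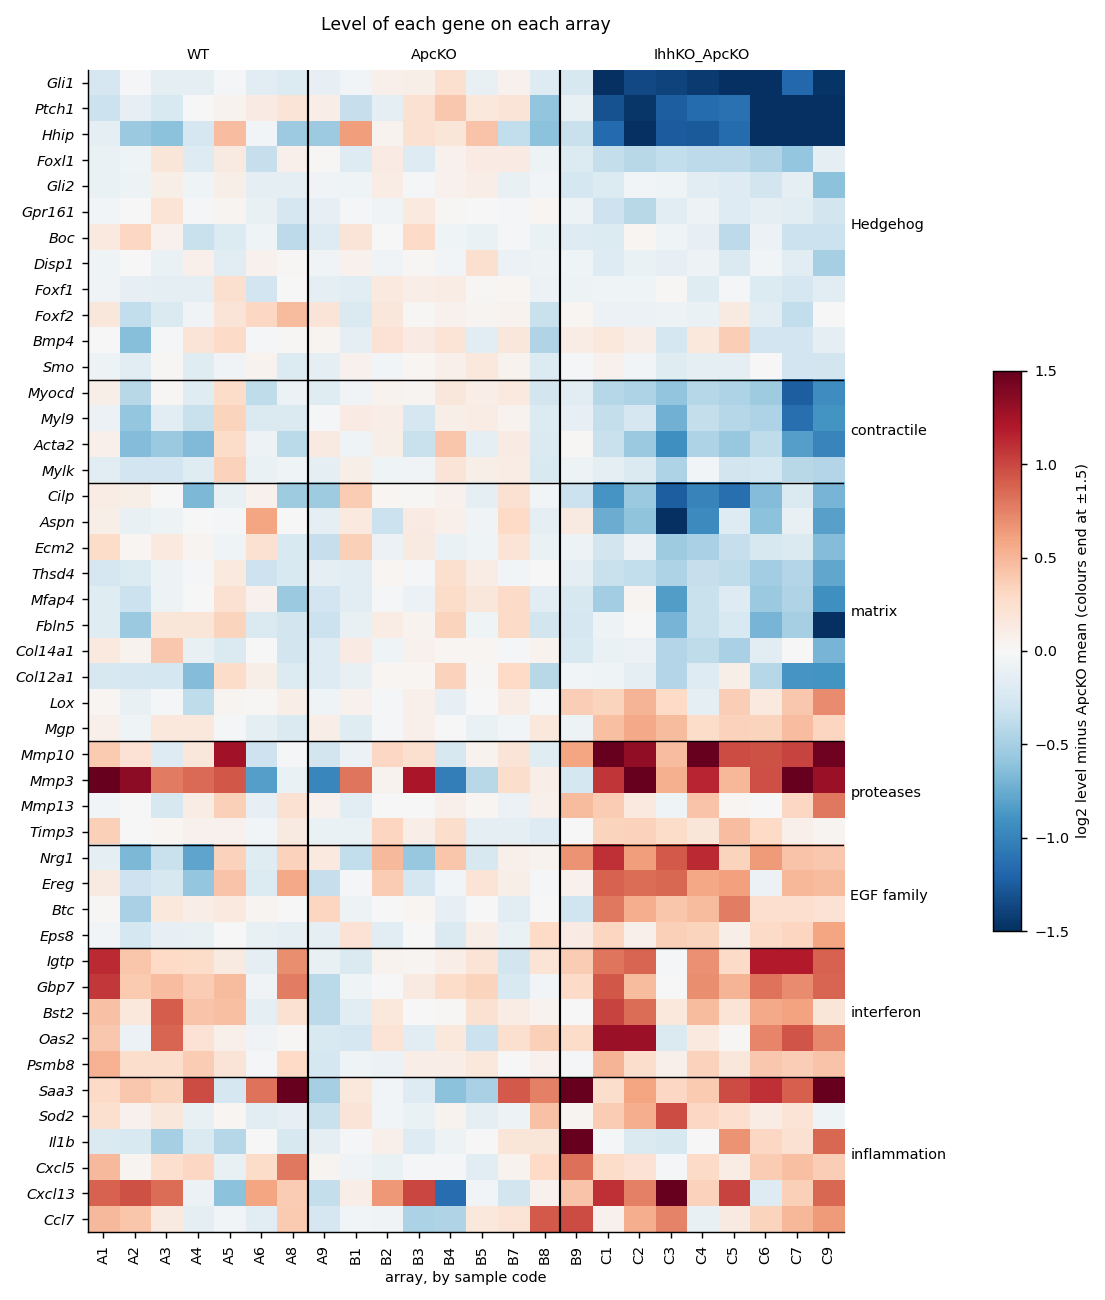
Level of 45 genes on each of the 24 arrays as the log2 difference from the ApcKO mean, with colours ending at 1.5 in either direction. B9, the leftmost double-knockout array, is pale in Gli1, Ptch1 and Hhip and dark red in Saa3 and Il1b, and the WT arrays resemble the double knockout in several interferon response genes.

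Outside the genes with a single name, the same test on all 65956 transcript clusters called 17, of which 8 have no single gene name here. The largest of them, TC0100002577.mm.1, was at -1.91 (SE 0.19, adjusted p = 9.89e-06), which exceeds every named gene, and -2.10 without B9. Next in p was TC0400001276.mm.1 at -0.67 (SE 0.079, adjusted p = 0.00019). TC0400001040.mm.1, at -1.46 (SE 0.22, adjusted p = 0.00541), also exceeds every named gene. TC0500000239.mm.1 and TC0500000244.mm.1 were at -1.42 and -1.16. These clusters were chosen after their values were seen. Ndst3, Rbp4, Dclk2, Eml1 and Cilp, which passed at the gene level, were not among the 17.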

How the data were processed

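The log2 values of the 24 arrays were deposited by the authors as RMA output, per the submitters' processing notes. Which software version and genome build lie behind them is not stated in the material used. Of 65956 transcript clusters, left after removal of 6732 control probe sets, 31388 carry the symbol of 1 gene in the platform annotation (updated through Entrez identifiers for 1176), and the brightest per gene gave 30827 genes. These include 784 clusters with several printed symbols that share 1 Entrez gene. The other clusters with several symbols (1362) and those with none (33206) were left out of the gene level. With clusters of 1 printed symbol only there were 30142 genes, and 15 passed, the 14 among them. limma 3.58.1 in R 4.3.3 fitted 3 group means to all 24 arrays (lmFit, eBayes), with Benjamini-Hochberg adjustment over all genes, and the fit was tested on simulated data. Arrays have no read depth, and their number limits the precision. Replicate codes are shared by no groups, so no paired fit was made.

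The text names all genes past the test, all that passed only without B9, up to 4 members per list with the smallest unadjusted p, fixed Hedgehog genes and the 6 largest differences not past the test. Marker genes, chromosomal neighbours and genes marked as such were added after values were seen. The comparison and the gene lists were chosen with earlier results of these data known, and list counts are descriptions. Alternatives were other normalizations, filters, covariates, blocks and left-out arrays. Promoter sequences and gene order are RefSeq's (GRCm38.p6). Some members of the gene lists are not reported here.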

Additional observations from a re-analysis of the deposited data

Results flagged for a closer look

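Single arrays that stood apart from the rest of their group were looked for with Dixon's criterion in the 41 genes that passed with or without B9, in both groups, 82 combinations in all. Chance meets it in about 1 of 20 groups, but that rate does not apply here, since 27 of the genes were taken because they passed only without B9, Procr, Mgp, Mitf and Fgfr2 among them. It was met in 10 cases. In 7 of them the array was B9 of IhhKO_ApcKO. There Gli1 was at 7.99, Ptch1 at 9.53 and Hhip at 8.96, the highest of the group for all 3 pathway genes. Procr, at 7.55, and Fgfr2, at 8.37, were also highest on B9. Mgp, at 11.61, and Mitf, at 7.08, were lowest on it.

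The other 3 cases concerned A9, the ApcKO array whose code letter is otherwise that of the WT arrays. It had the lowest ApcKO value of Vmn2r-ps41, 5.86, and of Gda, 7.34, and the highest of Btc, 7.61. These genes passed the test without B9 and not with it.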

How the results depend on the processing

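Of 30827 genes, 14 passed, and this number was 8 with arrays centred on their medians, 65 with array weights and 24 at an adjusted p under 0.10. It was 1 with the code letter as a random block and 53 with it as a fixed block. Leaving out single arrays gave 8 to 41 genes: 41 without B9, 25 without A9, 9 without B4, B5, C1 or C7 and 8 without C6. The 41 genes of the set without B9 became 22 with Xist as a covariate. Leaving out a further array, chosen after seeing the data, gave 20 (B3, B5 or B7) to 54 (B8), with 24 without B1 or C6, 25 without B4, 26 without C1 and 27 without C3. Gli1, Ptch1, Hhip, Gm16907, Pltp, Lepr, Fancc and Mmp10 passed in all 27 alternatives other than the letter blocks. Thsd4 passed in 21 of these, Ndst3 in 15, Rbp4 in 14, Dclk2 in 11, Eml1 in 9 and Cilp in 8, with adjusted p up to 0.0923, 0.0936, 0.0964, 0.156, 0.150 and 0.143. The sign turned for Fancc (0.0316) and Rbp4 (0.0731) with the fixed letter block, for Dhh (-0.0197) with the epithelial markers as covariate and for Bmp4 (0.0082) with Xist as covariate. The cause of these changes was not tested. No paired analysis was possible because the groups compared share no replicate codes.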
